A study of Mus musculus with 15 samples.

Results

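Non-CpG sites with a mean methylation above 50 percent were a small and mixed set in mouse dentate gyrus: 1046 of 2369753 autosomal non-CpG cytosines, or 0.0441%. They were taken from a table of percent methylation per cytosine and strand as the autosomal non-CpG positions, entered once each, whose mean over the mice with a value lay above 50 percent. Sites on the same strand with no more than 30 bases from one to the next were joined into a stretch, which put 859 sites (82.1%) into 54 stretches and left 187 lone sites. The selection used the mean level itself, so the levels below describe the sites and were not tested. It also fixed that neighbours outside the set lie at or below 50 percent, so their levels are descriptions too. Differences between housing groups were not used by the selection.

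The study measured cytosine methylation by reduced representation bisulfite sequencing (RRBS), which cuts genomic DNA with a restriction enzyme, treats short fragments with bisulfite so that unmethylated cytosines read as thymine, and counts the cytosines that remain. The tissue was dentate gyrus, a region of the hippocampus, dissected from female C57BL/6JRj mice aged 7.5 months. There were 5 mice in each of 3 groups: standard cages for 6 months, enriched cages for 6 months, and 3 months in enriched cages with 3 further months back in standard cages, called the withdrawal group. The labels number the samples of a group without saying outright that each came from its own animal, so p-values measure the spread between these samples, called mice here. Values came without read depth, so their counting error is unknown. The CpG sites at the ends of Prox1, a transcription factor gene that defines dentate granule cells, averaged 2.37% ± 1.26 (SD, n = 5) in standard, 1.33% ± 1.09 (n = 5) in enriched and 1.48% ± 0.711 (n = 5) in withdrawal mice over 3 sites, and methylation alone does not prove the tissue.

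In most adult mammalian cells DNA methylation sits at CpG, where DNMT1 copies it onto the new strand after replication. Neurons also carry methylation at cytosines outside CpG, mostly where the next base is adenine (CA), and DNMT3A writes it after birth. Bisulfite data do not separate a methylated cytosine from one that was left unconverted.

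None of the 1046 sites lay in a reference sequence used here, but promoter windows from RefSeq (GRCm38.p6) checked how the table reads cytosines. Of the table's CpG entries, 38591 fell in such windows and each was followed by G. Of the non-CpG entries there, 33875 were in CHG and 78099 in CHH (H is any base but G). The share with A as the next base went with the level, from 28.7% of the 110823 sites of 0 to 5 percent to 61.6% of the 1139 sites of 5 to 20 percent and all 12 of the 12 sites above 20 percent. Those 12, on the far side of the threshold, are the nearest in level whose letters can be read. They do not stand for the sites in stretches. In 31 of the 36 stretches of at least 8 sites the last member came directly before a CpG, so its next base was C. Of the 12, 5 are printed, which are not the 5 highest, since Spp1 (24.56%) stands in place of 4933440J02Rik (24.63%). Each is given as the 13 bases centred on the cytosine, read 5′ to 3′ on the strand of the site, with CA in capitals.
Gm26562 promoter, chr16:30206714-30206726, minus strand, mean 43.4%: tttctaCAtgacc
Gdf2 promoter, chr14:33940900-33940912, plus strand, mean 32.3%: cctttcCAccagc
3110099E03Rik promoter, chr2:115512316-115512328, plus strand, mean 30.9%: aaaagaCAtgaca
C5ar2 promoter, chr7:16242361-16242373, minus strand, mean 26.6%: catcctCAcaaca
Spp1 promoter, chr5:104435000-104435012, minus strand, mean 24.6%: ctcctaCActtcc

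The other autosomal non-CpG cytosines averaged 0.785%, with a median of 0, and 97.3% of all of them lay under 5 percent. Sites in stretches and lone sites took up opposite ends of the range above 50 percent. Of the 859 sites in stretches, 770 averaged above 99 percent, and 506 read 100 in every mouse that had a value. Of the 187 lone sites, 106 lay between 50 and 60 percent and 45 between 60 and 70, with a median of 58.5%, and 6 lay above 99 percent. A further 3407 autosomal non-CpG sites averaged 20 to 50 percent. Just outside the threshold were chr4:57358674 (minus, 49.9%), chr17:74995196 (minus, 49.9%) and chr4:151465102 (plus, 49.96%), and just inside were chr7:137429830 (minus, 50.2%), chr16:18585541 (minus, 50.3%, in the transcription factor gene Tbx1) and chr5:43424540 (plus, 50.3%). As a whole, 66.6% of the members (697) had a value in all 15 mice against 25.9% of all autosomal non-CpG sites, and no member had fewer than 10. This held for the sites in stretches, of which 645 of 859 were complete. Of the lone sites 52 of 187 were, a share near that of all sites.

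**Figure D1:**
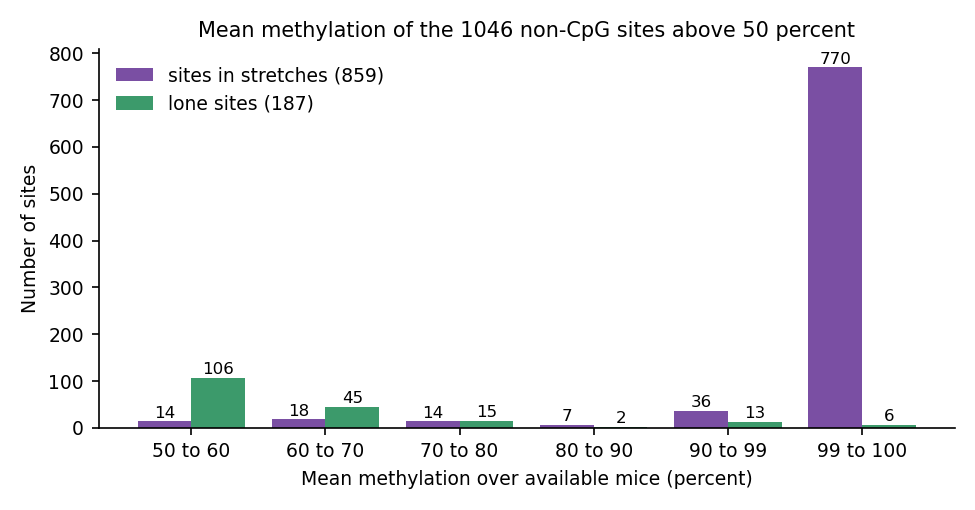
Number of sites (vertical axis) by mean methylation over available mice in percent (horizontal axis), for the 859 sites in stretches and the 187 lone sites. The last bin holds 770 stretch sites, and the first holds 106 lone sites.

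Long stretches, those of at least 8 sites, were the bulk of the set: 36 stretches with 812 of the 1046 sites (the minimum of 8 was chosen after the sizes had been seen). Their span from first to last site had a median of 69 bases and never passed 74, and 28 of the 36 spanned 64 to 74 bases. In 32 of them the mean over sites was above 99 percent. The cytosines were dense, taking up 23.0% to 57.1% of the bases spanned (median 33.1%), on the plus strand in 20 stretches and on the minus strand in 16. In 33 of the 36 no other non-CpG site of the same strand lay inside the stretch, so every non-CpG cytosine measured on that strand was above the threshold.

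The largest stretch, chr3:155867067-155867140 on the minus strand between genes, held 42 sites with a mean of 99.5%. Per mouse its mean was 99.6, 98.6, 99.3, 99.7 and 100 in standard, 99.7, 99.5, 99.6, 99.8 and 99.6 in enriched, and 99.6, 99.7, 99.6, 99.7 and 99.1 percent in withdrawal mice. All 15 mice sat within 1.41 points and the groups overlapped. The next largest were chr12:119475211-119475284 with 41 sites (mean 99.99%), chr17:46572075-46572147 with 39 (99.99%), chr3:151179706-151179779 with 38 (99.99%), and chr13:55950250-55950323 with 35 (99.98%), all on the minus strand. On the plus strand were chr13:85572978-85573048 with 34 sites (99.9%), chr19:14380798-14380868 with 34 (99.7%) and chr3:105131631-105131701 with 32 (99.9%). Among these 8 the widest range over mice was 2.33 points, in the chromosome 19 stretch, where standard mouse 1 (97.7%) and enriched mouse 1 (98.3%) lay below the other mice.

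Ends of the long stretches were marked by CpG. In 31 of 36 the base directly 3′ of the last site, on the same strand, was a CpG site, so that the last member stood immediately before CG. That CpG had a median of 99.9% and was above 90 percent in 30 of the 31, the exception being 69.4% beside a chromosome 14 stretch described below. A CpG site within 10 bases 5′ of the first member was present in 1 of 36. Other runs of 8 or more non-CpG sites in the table, 150441 in number and joined by the same 30-base distance, had the reverse arrangement: 3.22% had a CpG directly 3′ of the last site and 82.4% had a CpG within 10 bases 5′ of the first, with a median span of 64 bases. These are descriptions without a test, because the stretches were defined by their levels. The restriction enzyme is not given in the sources used here; the enzyme most used for RRBS, MspI, cuts at CCGG.

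Few non-members, which the rule holds at or below 50 percent, were measured inside or beside the long stretches. In 24 of the 36 none of the same strand lay inside or within 200 bases. In 7 at least 1 lay inside or within 30 bases, where the median over stretches of the mean level was 0.505%. Another stretch or lone site above 50 percent lay within 100 bases on the same strand at 5 of the 36. On the opposite strand, 32 of the 36 held no non-CpG site between their ends. CpG sites within 200 bases averaged above 80 percent at 23 of the 32 long stretches that had any, and at none was the mean under 20 percent.

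**Figure D2:**
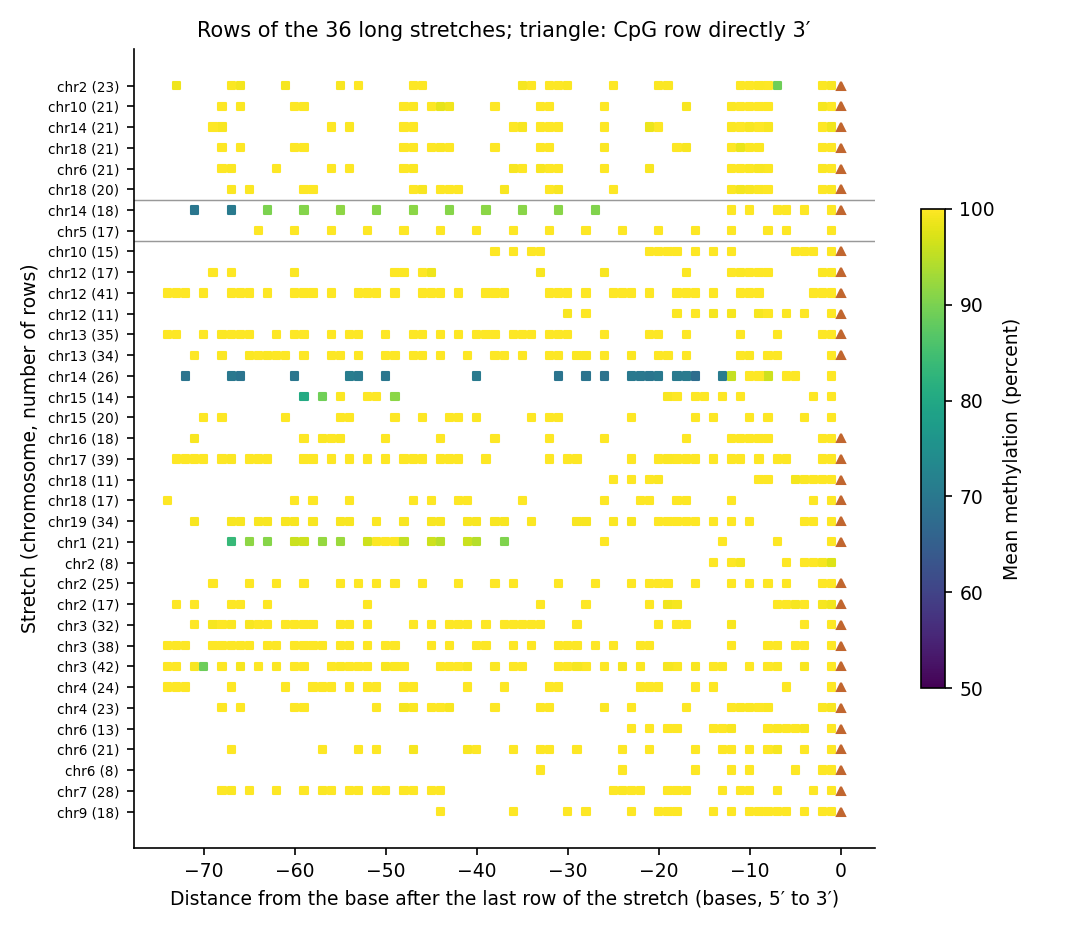
Every site of the 36 long stretches (1 line each, named by chromosome and number of sites) by distance in bases from the base after its last site, read 5′ to 3′, with colour for the mean methylation in percent and a triangle where that next base is a CpG site. The stretches end within 74 bases, 31 carry the triangle, and the top 6 lines, set off by a grey line, share a run of identical spacings.

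Distances between successive sites were compared for all 630 pairs of the 36 long stretches, and stretches were grouped where they shared at least 10 identical successive distances, a minimum chosen after the runs had been seen. By that rule 6 stretches on 5 chromosomes formed a group with shared runs of 10 to 16, and all 6 held the run 2, 6, 1, 11, 1, 2, 1, 1, 5, 5, which covers 11 cytosines over 35 bases. They were chr2:47692683-47692755, chr10:129506586-129506653, chr14:124211269-124211337 and chr6:90005950-90006017 on the minus strand and chr18:83668027-83668094 and chr18:81070802-81070868 on the plus strand. Together they held 127 sites, with means of 99.2% to 99.9%. The only other group was a pair, chr5:127433094-127433157 and chr14:55053017-55053087, with a shared run of 11. Over the 614 pairs outside both groups, which the rule holds to at most 9, the longest shared run had a median of 3. The minimum of 10 left out near matches to the chromosome 10 member of the group of 6. With it chr16:50141505-50141575 shared a run of 9, and chr12:10499210-10499278 and chr4:5211547-5211614 shared runs of 8. A run of 9 was also shared by chr13:55950250-55950323 and chr3:105131631-105131701, so the edge of the group of 6 is not sharp. A second kind of regularity was tandem spacing inside a single stretch. The run of 11 shared by the pair on chromosomes 5 and 14 was nothing else, since each of its distances was 4 bases. In chr5:127433094-127433157, within Tmem132c, 14 successive distances were 4 bases, and in chr14:55053017-55053087 there were 11 such distances in a row. In chr12:119475211-119475284 the distances 1, 1, 2, 3, a unit of 7 bases, came 5 times in succession.

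Most long stretches lay between genes. Of the 36, 7 lay inside a protein-coding gene (19.4%), 1 within 1 kb of a gene and 28 (77.8%) between genes, against 51.95%, 6.19% and 41.9% of all autosomal non-CpG sites. Ptk7, a receptor-like pseudokinase of Wnt and planar polarity signalling, held the 39-site stretch on chromosome 17, at 99.9% to 100% in every mouse. Tacc2, a centrosome-associated protein gene, held chr7:130661826-130661893 (28 sites, plus strand, mean 99.96%). Foxp2, a forkhead transcription factor, held chr6:15145866-15145932 (21 sites, mean 99.9%, with values in 11 to 13 mice per site), and Fgf14, an intracellular regulator of neuronal sodium channels, held the chromosome 14 member of the group of 6 with shared spacing (21 sites, mean 99.8%). Grm7, a metabotropic glutamate receptor gene, held chr6:110715077-110715099 (13 sites, mean 99.9%) and, 38 bases before it, the lone site chr6:110715039, which read 100 in all 13 mice with a value. R3hdml held chr2:163491840-163491853 (8 sites, 99.5%) and a pair of sites at chr2:163491885-163491886 (99.4%).

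Levels were followed from site to site in the 2 long stretches with the lowest means, and in both they changed in steps. The other long stretches were not examined in this way. At chr14:14800084-14800155, within 1 kb of the sodium bicarbonate cotransporter gene Slc4a7, the first 19 sites from the 5′ end had means of 67.7% to 71.0%, and the last 7 had means of 95.6% to 100%. Each mouse was averaged over those of the 26 sites where it had a value. These means were 100, 81.8 and 71.8 percent in the 3 standard mice with values. They were 83.5, 80.02, 57.2, 76.2 and 95.2 percent in the 5 enriched mice, and 81.5, 85.5, 17.97 and 78.6 percent in 4 withdrawal mice. Withdrawal mouse 3 had the lowest mean, 17.97%, and the groups overlapped. The last 7 sites had values in as few as 10 mice, against at least 12 for the first 19. The means of the mice, and the levels on either side of the step, thus rest on partly different sites and mice. At chr14:55053017-55053087 the first 2 sites had means of 69.7% and 70.4%, the next 10 of 90.1% to 91.5%, and the last 6 of 99.9% to 100%, followed by the CpG site at 69.4%.

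The 18 short stretches, of 2 to 6 sites, held 47 sites and were of both kinds. The longest, chr12:81042873-81042904 in Smoc1, a secreted modulator of BMP signalling, had 6 sites with a mean of 69.3%, and its mice ranged from 44.5% to 87.9% (11 with values). At chr2:118124037-118124048, in the matrix glycoprotein gene Thbs1, 3 sites averaged 87.0, 42.5, 69.5, 37.5 and 98.4 percent in standard mice, 45.8, 42.0, 44.8, 50.7 and 47.0 percent in enriched mice, and 74.4, 67.5, 92.8, 86.4 and 37.9 percent in withdrawal mice. Enriched mice kept within a narrow band (46.1% ± 3.19, n = 5) while the standard (67.0% ± 26.7, n = 5) and withdrawal mice (71.8% ± 21.4, n = 5) covered it on both sides, and none of the 3 sites was called in a group comparison.

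Lone sites have, by the rule, no other site above 50 percent within 30 bases on their strand. The non-CpG sites there, present at 184 of the 187, averaged 2.29% in the median, and the highest of them at each site had a median of 10.6%. Farther out, 13 lone sites had another lone site or stretch within 1 kb, 4 of them on the same strand within 100 bases. CpG methylation within 200 bases, measurable at 179, had a median of 90.4%, was above 80 percent at 126 and under 20 percent at 2. Middle levels came with large differences between mice: the within-group SD of lone sites of 50 to 80 percent had a median of 24.3 points. The 37681 autosomal CpG sites in the same range of means had a median SD of 23.0 points. Single sites of long stretches, most of them near the upper limit of 100 percent, had a median SD of 0 points. For the mean over each long stretch it was 0.173 points. The base after the cytosine was itself a measured cytosine at 0 of the 166 lone sites of at most 80 percent, against 28.0% of all autosomal non-CpG sites. Of the lone sites, 92 lay inside a gene (49.2%, against 51.95% of all autosomal non-CpG sites), 2 within 1 kb of a gene (1.07%, against 6.19%) and 93 between genes (49.7%, against 41.9%).

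**Figure D3:**
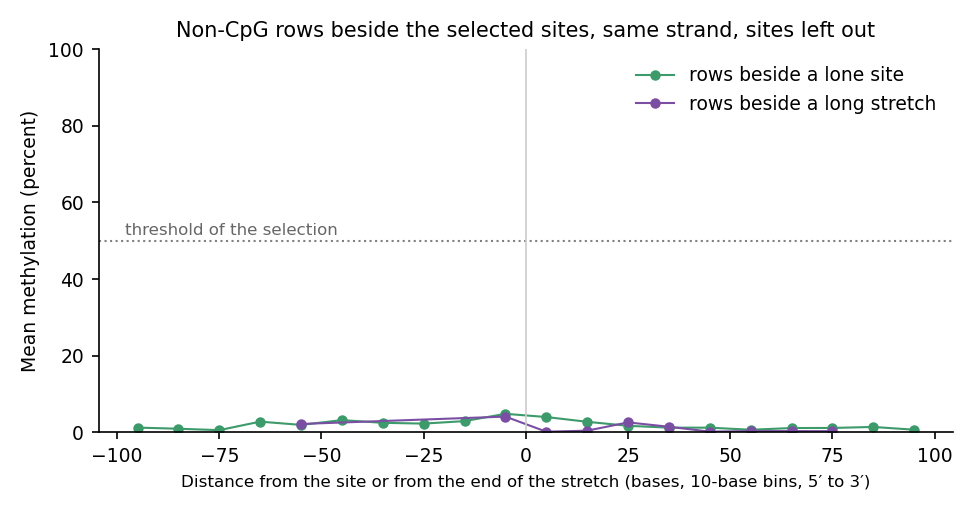
Mean methylation in percent (vertical axis) of non-CpG sites on the same strand that were not themselves above 50 percent (the selection fixes this limit), in 10-base bins of distance (horizontal axis, bases, 5′ to 3′) from a lone site or from the end of a long stretch, in bins with at least 6 sites. Every bin lies under 5 percent, the highest being 4.83% in the 10 bases 5′ of a lone site.

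At the 21 lone sites above 80 percent the mice read more alike. The range over mice had a median of 18.2 points against 81.4 points for the 166 others. Values stop at 100, so splitting the sites by their mean fixes part of this contrast in advance. Of the lone sites above 80 percent with a value in all 15 mice, chr2:103181796 (plus) read 100 in each. Next came chr2:142174806 (plus, 99.8%) in the ADP-ribose hydrolase gene Macrod2, where 14 mice read 100 and withdrawal mouse 4 read 97.3%, and chr2:98666383 (plus, 97.7%), where mice ranged from 83.5% to 100%. On chromosome 9, chr9:3030234 (minus, 97.01%) ranged from 85.2% to 100%, and chr9:3001055 (minus, 96.4%) from 84.9% to 100%. The remaining 3 were chr16:86467975 (minus, 92.7%), chr11:3185948 (minus, 90.9%) in the centriole gene Sfi1, and chr4:147221074 (plus, 90.8%) in the zinc finger gene Zfp978. Sfi1 held 2 more lone sites, at chr11:3150803 (95.6%) and chr11:3151228 (83.0%). The overlapping nuclear body genes Sp110 and Sp140 shared 2 that lay 50 bases apart, at chr1:85591825 (98.8%) and chr1:85591875 (99.7%).

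Genes with lone sites of middle level included Elavl4, which encodes a neuronal RNA-binding protein (chr4:110261280, 63.5%, and chr4:110281289, 64.8%), the transcription factor gene Prdm16 (chr4:154581420, 58.5%, and chr4:154620739, 75.6%), the RNA-binding protein gene Rbms3 (chr9:116935100, 75.6%, and chr9:117102616, 61.5%) and the receptor phosphatase gene Ptprm (chr17:66978381, 72.9%, and chr17:67237901, 52.6%). At the Wnt antagonist gene Sfrp1 a lone site on the plus strand (chr8:23418434, 64.1%) lay near a pair of sites on the minus strand (chr8:23418621-23418623, 64.2%). Each pair in Elavl4, Prdm16, Rbms3 and Ptprm was over 1 kb apart. These means cover wide differences between mice, with values in 11 to 15 mice per lone site. At every lone site of these genes the highest mouse read 100%, and the lowest read from 0% (chr17:67237901) to 50% (chr17:66978381). In all, 103 protein-coding genes had a stretch or lone site inside or within 1 kb, and 11 had more than one.

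The widest ranges over mice, among stretches and lone sites with all 15 values, all belonged to lone sites. At chr15:78639298 (plus, between genes) standard mice read 48.5, 100, 74.2, 40.9 and 77.8 percent, enriched mice 71.9, 84.2, 64.7, 75.8 and 0 percent, and withdrawal mice 57.4, 61.6, 67.6, 66.0 and 56.5 percent. Enriched mouse 5 at 0 and standard mouse 2 at 100 made the range of 100 points, and the groups overlapped. At chr13:112211705 (plus) the range was also 100 points, from 0 to 100 percent, both within the standard group. Ranges at chr3:149371076 (91.2 points), chr2:117539166 (90.4), chr7:137429830 (88.9) and chr14:118614166 in the transporter gene Abcc4 (88.0) were nearly as wide. At chr2:117539166 standard mice averaged 69.97% ± 19.9 (n = 5), enriched 36.8% ± 26.5 (n = 5) and withdrawal 53.4% ± 19.1 (n = 5), and the site was not called.

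Mean levels of the set differed between housing groups by less than the spread of the mice. Over the 697 members with a value in all mice the mean was 96.16% ± 0.195 (SD, n = 5) in standard, 96.15% ± 0.446 (n = 5) in enriched and 96.08% ± 0.232 (n = 5) in withdrawal mice, and no test was made of a score over chosen sites. The differences were -0.0122 points (enriched minus standard), -0.0824 (withdrawal minus standard) and -0.0701 (withdrawal minus enriched). The 645 complete stretch sites averaged 98.4% to 99.1% in every mouse. The 52 complete lone sites averaged 63.4% ± 2.38 (n = 5), 64.4% ± 4.05 (n = 5) and 62.4% ± 0.959 (n = 5) in standard, enriched and withdrawal mice. Over the other complete autosomal non-CpG sites each mouse averaged between 0.771% and 0.875%.

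**Figure D4:**
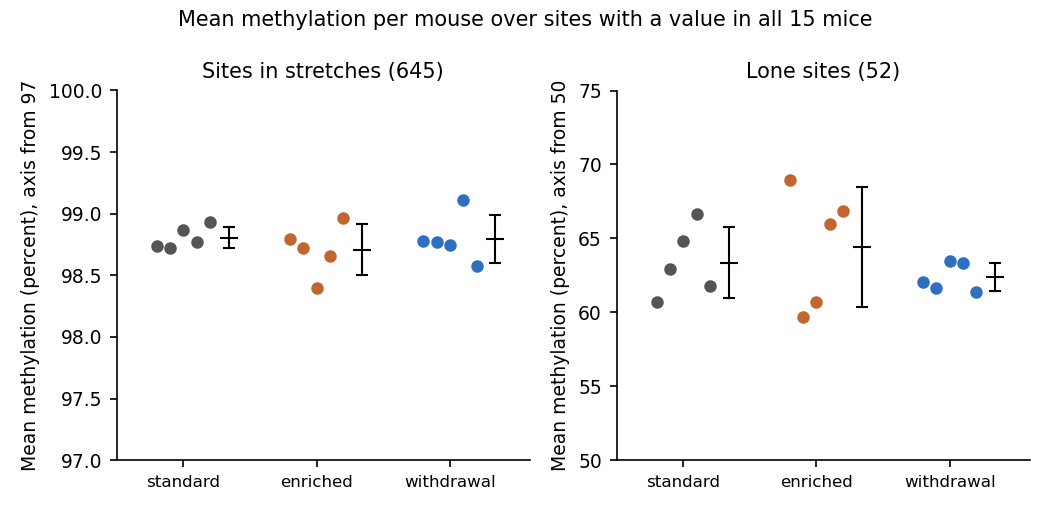
Mean methylation in percent for each mouse (points) with group mean and SD (bars, n = 5), over 645 stretch sites (left, axis from 97) and 52 lone sites (right, axis from 50) with values in all mice. The stretch means lie between 98.4 and 99.1 percent, the lone means between 59.7 and 68.9 percent, and the groups overlap in both.

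Sites were compared between groups in a single limma fit over 284738 non-CpG sites (chromosome Y and mitochondrial DNA left out) that had a value in all mice and a range of at least 5 points, on the scale log2((percent + 5)/(100 - percent + 5)). Only 109 of the 1046 members passed that filter, 59 in stretches and 50 lone. For enriched minus standard, 12 members were called at a Benjamini-Hochberg adjusted p under 0.05, where 0.00421% of all tested sites were called. The same 12 were called for withdrawal minus standard, against 0.00421% of all tested sites, and both comparisons use the same standard mice. For withdrawal minus enriched none was called by limma, nor any other site (0%), and 23 members had an unadjusted p under 0.05. At an unadjusted p under 0.05 were 40 and 31 of the 109 members in the comparisons with standard, where 2.16% and 1.91% of all tested sites were (1.86% for withdrawal minus enriched). At 89 of the 109 members the spread between mice of a group was above the spread limma used, which is borrowed in part from other sites. The higher shares among members therefore do not show that members differed between groups more often than other sites. All 12 called sites of the table were members.

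Of these 12 sites, 9 lay next to each other in the chr14:55053017-55053087 stretch, within the block of 4-base spacing. At chr14:55053067, the site with the smallest p, standard mice read 100, 100, 100, 90.1 and 88.7 percent, enriched mice 93.3, 86.5, 77.8, 85.7 and 93.3 percent, and withdrawal mice 90.4, 88.6, 92.5, 93.9 and 82.2 percent. Standard mice 1, 2 and 3 read 100 at each of the 9 sites, while standard mice 4 and 5 lay among the mice of the other groups. Over the 9 sites the enriched minus standard difference was -8.44 to -6.25 points, or -1.22 to -0.998 on the log2 ratio scale with standard errors of 0.18 to 0.20 (limma adjusted p = 0.000154 to 0.00842). The withdrawal minus standard difference was -7.58 to -5.96 points (limma adjusted p = 0.000299 to 0.00472). Sites this close can share reads and are not independent of each other.

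The other 3 called sites were higher in both enriched and withdrawal mice. At chr10:129506629 (minus), in the group of 6 with shared spacing, standard mice read 94.1, 78.6, 100, 100 and 100 percent and all 10 other mice 100. At chr18:81070838 (plus), in the same group, standard mice read 100, 94.7, 100, 96.8 and 100 percent and all 10 others 100. The lone site chr16:86467975 (minus) read 50, 100, 93.8, 100 and 66.7 percent in standard mice, 91.3, 100, 100, 100 and 100 percent in enriched mice, and 100, 100, 100, 100 and 88.9 percent in withdrawal mice. In each of the 3 some standard mice read 100 like the others, so the groups overlapped.

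**Figure D5:**
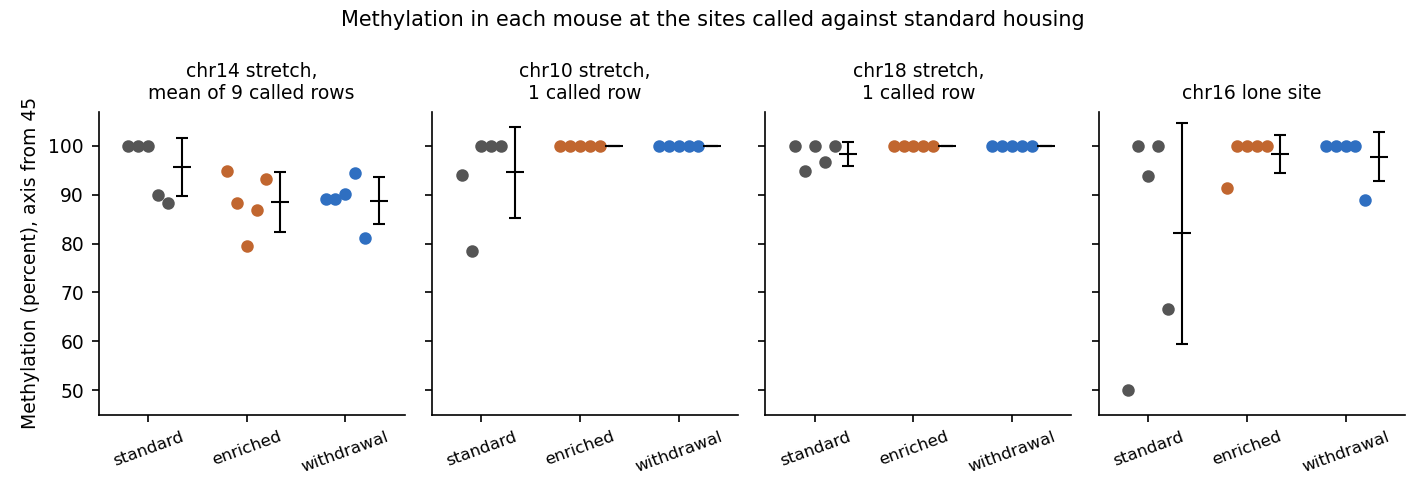
Methylation in percent in each mouse (points, 5 per group) with group mean and SD (bars) for the called sites: the mean of the 9 called sites of the chromosome 14 stretch, and the single called sites on chromosomes 10, 18 and 16 (axis from 45). Standard mice 1, 2 and 3 stand at 100 percent in the first panel, and some standard mice lie within the range of the other groups in every panel.

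The limma test used a spread borrowed in part from other sites. At the 12 sites the spread between mice of a group on the log2 scale was 2.51 to 3.26 times the moderated spread the test used, and only 55 of the 284738 tested sites, 52 of them members, had means above 80 percent, against 283739 with means of at most 20 percent. Two-sided exact permutation tests of each of the 12 sites were added after the calls were seen. In them p was 0.0794 to 0.444 for enriched minus standard and 0.0635 to 0.444 for withdrawal minus standard. Over the 36 tests the smallest adjusted p was 0.247. Comparing 5 with 5 mice allows a p as small as 0.00794 where values are not tied. At chr10:129506629 and chr18:81070838 most mice were tied at 100. There 0.444, the p obtained against standard, was the smallest possible, so the test could not decide at these sites. No member was called against standard when percentages were tested untransformed, when no minimum range was set, or when the variance prior did not follow the mean. An offset of 1 point in place of 5 gave 30, 26 and 13 members for enriched minus standard, withdrawal minus standard and withdrawal minus enriched, and taking sites with at least 3 mice per group gave 72, 63 and 48. Leaving out 1 mouse at a time gave 14 to 32 members called for enriched and 14 to 26 for withdrawal against standard, and 2 to 13 for withdrawal against enriched. The 12 called against standard all remained except without standard mouse 2, where chr18:81070838 no longer passed the minimum range.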

How the data were processed

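The deposited table gives percent methylation for each mouse at each cytosine and strand; per the submitters' processing notes, reads were handled with Trim Galore 0.4.0, cutadapt 1.8.1, Bismark 0.16.1 and methylKit 1.5.2 on mm10. The parameters and any coverage minimum are not given in the sources used here, and depth is unknown, so no counting interval was computed. Unconverted cytosines count as methylated in such percentages. The table runs through the chromosomes 2 times; the first run (455836 entries) was taken as CpG and the second (2462278) as non-CpG, of which 40 repeated entries were left out.

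Members and lists were chosen with earlier results of these data known. Named items were every called member, the 8 stretches with most sites, the 8 highest and 6 widest-ranging among those with 15 values, 3 sites on each side of the threshold, up to 10 loci at protein-coding genes, and members with a CpG entry or a reference sequence (0 found); genes with several lone sites were named after their values were seen. Gene positions came from RefSeq (GRCm38.p6, 21896 protein-coding genes). The 3 group means were fitted with limma 3.58.1 in R 4.3.3, the variance prior following the mean, two-sided, Benjamini-Hochberg adjusted over all tested sites; the fit was tested on simulated data. Alternatives changed the offset, scale, filters, groups fitted, prior, replicate block and mice.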

Additional observations from a re-analysis of the deposited data

Results flagged for a closer look

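Dixon's ratio, the gap of a mouse to the nearest other mouse over the group's range, was taken in 39 groups of 5 mice. These were the per-mouse means and the called or widest-ranging loci. In 4 groups a mouse exceeded the 95% critical value of 0.71. The usual rate of about 1 in 20 is for unselected, normally spread values. It does not apply here, since most loci were picked for calls or wide ranges and values stop at 100. Enriched mouse 3 averaged 99.3% over the chr10:129506586-129506653 stretch, below the other enriched mice. At the lone site chr16:86467975 enriched mouse 1 read 91.3% and withdrawal mouse 5 read 88.9%, with the other 4 mice of each group at 100. With 4 mice tied, any single lower reading is flagged whatever its size. At the lone site chr15:78639298 enriched mouse 5 read 0, with the other enriched mice between 64.7% and 84.2%. The depth behind these values is unknown.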

How the results depend on the processing

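The counts of sites depended on where the threshold lay and on completeness. A threshold of 60 percent left 87 lone sites and one of 40 percent gave 426, and only sites with a value in all mice gave 697 sites, 34 stretches and 52 lone sites. Without 1 mouse at a time there were 1046 to 1061 sites, 52 to 56 stretches and 186 to 198 lone sites.

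Group differences in the mean of the set were small throughout. Taking 1 value per stretch or lone site first gave 0.552 points for enriched minus standard (a change of sign), -0.600 for withdrawal minus standard and -1.15 for withdrawal minus enriched. Averaging every available member gave -0.794 for withdrawal minus standard and -0.627 for withdrawal minus enriched. Without 1 mouse at a time the 3 differences were -0.118 to 0.129, -0.173 to -0.0136 and -0.211 to 0.0351 points.

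Calls changed with nearly every setting. Members called for enriched minus standard, withdrawal minus standard and withdrawal minus enriched numbered 30, 26 and 13 with an offset of 1 point (all sites 34, 27 and 16), and 72, 63 and 48 among sites with at least 3 mice per group (all sites 78, 66 and 53). With only the groups compared, 31 members were called for withdrawal minus standard (32 sites) and 20 for withdrawal minus enriched (22 sites). On the percent scale, and with no minimum range, 0 members and 0 sites were called in each comparison, and a prior not following the mean gave 0 members in each and 0, 0 and 2 sites. The exact permutation tests gave 0 of the 12. Without 1 mouse at a time, limma called 14 to 32, 14 to 26 and 2 to 13 members, and 15 to 36, 15 to 27 and 2 to 15 sites; the first 2 member counts passed 18 without each mouse except withdrawal mice 1 and 3 (18 and 14) for enriched, and except standard mouse 2 (18) and withdrawal mice 1, 3 and 5 (18, 14 and 16) for withdrawal.

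The replicate numbers gave no clear sign of pairing the mice. Deviations from the group means of same-numbered mice correlated at -0.0052 to 0.0046, and those of differently numbered mice at -0.0061 to 0.008. Of the 15 mice, 5 correlated best with their own number. Every correlation lay near 0, so the check could not decide whether the numbers pair the mice. With a replicate block, 27, 23 and 9 members were called, of 30, 23 and 11 sites. Values carry no depth, so a reading of 100 or 0 from few reads cannot be told apart from one from many.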

Other observations

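Outside the autosomes, the X chromosome had 110 non-CpG sites above 50 percent among 91668 (0.12%), in 4 stretches of up to 38 sites and 2 lone sites. The Y chromosome had 0 of 411, and the mitochondrial genome 1 of 406. None of these counts among the 1046 sites; those of the X chromosome that met the filter were among the sites fitted with limma.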
